A study of Danio rerio with 34 samples.

Results

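BMP signaling genes were compared in RNA-seq of zebrafish cells that the study sorted as cell types of the endothelial-to-hematopoietic transition. The set was listed by name, with earlier results of these data known, and holds 10 of the 47048 genes of the count table. They are the ligand *bmp4*, the receptors *acvrl1*, *bmpr2a* and *bmpr2b*, and the receptor-activated Smads *smad1*, *smad5* and *smad9*. The others are the inhibitory Smad *smad6b* and the target genes *id1* and *id3*. All 10 passed the filter on low counts, as did 21161 genes in all, and no member was at 0 in every library of a group. Endothelial cells (ECs), hemogenic endothelial cells (HECs, the endothelial cells that give rise to blood) and hematopoietic stem and progenitor cells (HSPCs) were sorted from the trunk of Tg(*kdrl*:mCherry/*runx1*:en-GFP) embryos at 36 h post fertilization (hpf). Each cell type came from siblings and from *dnmt1* mutants, which lack the maintenance DNA methyltransferase. All groups carried both reporters, so the cells of every group were defined by transgenes driven by a vascular promoter and a *runx1* enhancer. There were 3 libraries per genotype for ECs and for HECs and 2 per genotype, replicates 2 and 3, for HSPCs, which makes 16 libraries.

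In the BMP pathway, a secreted ligand brings type I and type II receptors together, the type I receptor phosphorylates Smad1, Smad5 or Smad9, and these enter the nucleus with Smad4 to switch on targets such as the *Id* genes. Smad6 and Smad7, themselves induced by the pathway, block its receptors and Smads. In the embryo the pathway patterns the ventral mesoderm, acts in vessel growth through Alk1, and in the zebrafish *bmp4* signals from below the dorsal aorta to the cells that will form blood.

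Depth, as reads counted on genes, ran from 3125048 to 13201410 in a library (median 4563344.5). Values are given in CPM, the reads of a gene relative to the reads of its library, with library sizes adjusted by the trimmed mean of M-values (TMM) and no scaling by gene length, so that levels are compared between libraries and not between genes. The labels do not say whether libraries of a group came from separate clutches or sorts, so *P*-values measure the spread between these libraries, which may be technical. Each column of the table was taken for the genotype in its name, as the sample titles and the genotype label also have it. The description field of the same samples gives each of these names to the opposite genotype. If that field is the right one, every difference between mutant and sibling given here changes sign, whereas comparisons of cell types averaged over both genotypes stay the same. The level of *dnmt1* does not settle it, since its libraries overlapped between genotypes in all 3 cell types.

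The labels were set beside defining markers. The summed level of 12 endothelial markers was 4690–8100 CPM in ECs, 1640–2660 CPM in HECs and 21.1–75 CPM in HSPCs. Erythroid markers (10 genes, mostly embryonic globins) ran the other way, at 0–2120 CPM in ECs, 3220–17200 CPM in HECs and 32100–171000 CPM in HSPCs. Myeloid markers (8 genes) were at 35.3–1750, 1210–14700 and 214–2440 CPM in the same order. Muscle markers (7 genes) reached 24900 and 18800 CPM in replicate 3 of sibling and mutant HSPCs and 5850 CPM in replicate 1 of mutant HECs, against at most 600 CPM in the other libraries. The HSPC label went against several of its own markers, since *runx1* was at 1.44–11.5 CPM in HSPCs and 16.4–79.6 CPM in HECs, *myb* at 11.5–16.4 and 56–150 CPM, and *gata2b* at 0–1.97 and 20–109 CPM. *gfi1b*, a gene for a transcriptional repressor, was at 59.4–211 CPM in HSPCs and 3.15–80 CPM in HECs, which overlapped. Of the 7 hemogenic and HSPC markers tested, 2 were called lower and 0 higher in HSPCs than in HECs, and their summed level was 411–829 CPM in HSPCs and 582–988 CPM in HECs. Myeloid markers had a median sum of 7530 CPM in HECs, 191 CPM in ECs and 1330 CPM in HSPCs. Of the hemogenic and HSPC markers 2 were called higher in HECs than in ECs and 0 lower. The names HEC and HSPC are therefore used here for the sorted gates. In bulk libraries, fewer cells of a type and less RNA per cell cannot be told apart.

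**Figure D1:**
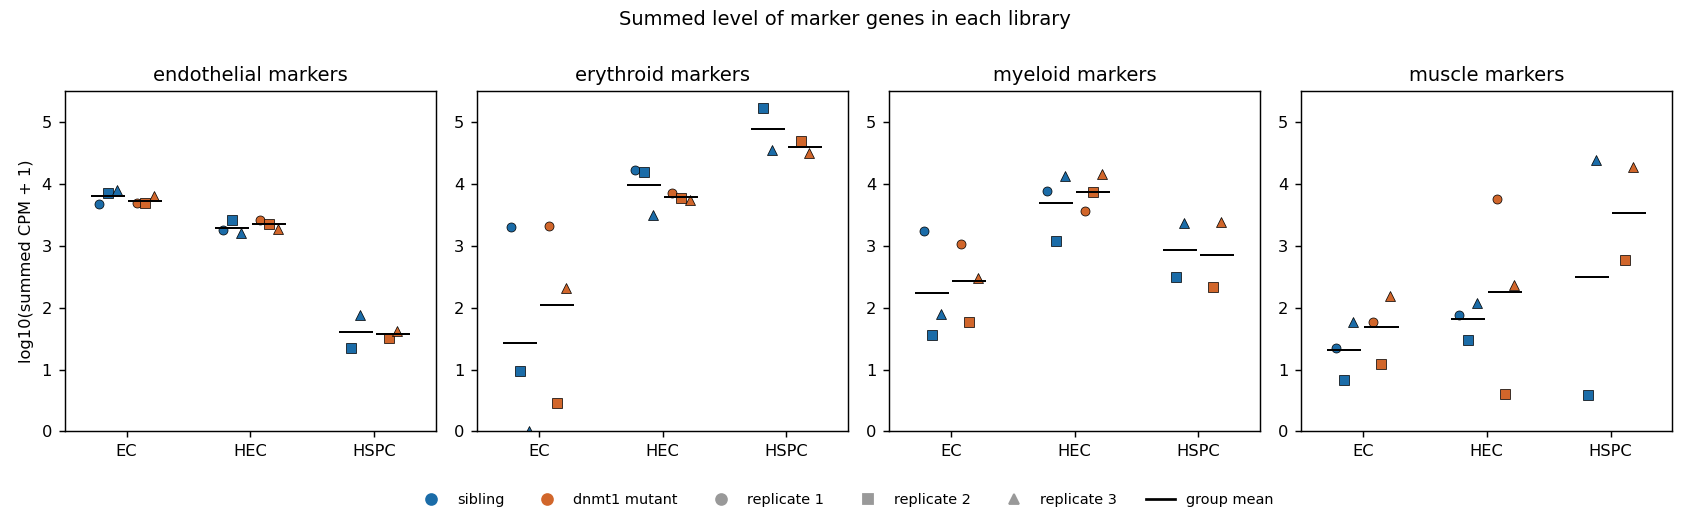
Summed CPM of endothelial, erythroid, myeloid and muscle marker genes in each library, as log10(summed CPM + 1), by cell type and genotype, with a bar at each group's mean. Endothelial markers step down from ECs to HECs to HSPCs, erythroid markers step up, and 3 libraries stand out in the muscle panel.

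The study names the step from EC to HEC hematopoietic specification. With both genotypes averaged, 8 of the 10 BMP genes were lower in HECs than in ECs and none was higher. They were all 3 receptors, the 3 receptor-activated Smads, *smad6b* and *id1*, with log2 fold changes from -1.49 to -2.27. The ligand *bmp4* and the target *id3* did not pass the test. Across all genes tested, 3.63% were called lower in HECs and 3.49% higher (edgeR quasi-likelihood test, called at a Benjamini-Hochberg adjusted *P* under 0.05 and a change of 1 or more in either direction on the log2 scale). The median log2 fold change was -1.79 for the 10 genes and 0.02 for all genes tested. Because the members were chosen with earlier results of these data known, this contrast with all genes is no test of the set. In 5 members, *bmpr2a*, *bmpr2b*, *smad5*, *smad6b* and *smad9*, every HEC library lay below every EC library, a pattern found in 3.23% of all genes. Of 12 endothelial markers 6 were called lower in the same comparison, with a median log2 fold change of -1.70. Markers of mesenchyme and stroma fell in 4 of 7 genes (median -5.50, summed level 161–3690 CPM in ECs and 9.85–226 CPM in HECs). Of 7 neural markers 1 was called lower (median -1.82). Blood markers rose, with 3 of 10 erythroid and 1 of 8 myeloid genes called higher (medians 3.68 and 3.83). The part of these cells in the fall of the BMP genes was not tested.

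Single libraries decided how many of the 8 calls were made. The count ranged from 2 to 8 when each library was left out in turn, beside 1.1% to 5.72% of all genes called lower. It fell to 2 without sibling HEC replicate 1, sibling HEC replicate 3 or mutant HEC replicate 3, to 3 without mutant EC replicate 3 and to 4 without sibling EC replicate 2. It was 5 without sibling EC replicate 3, mutant EC replicate 2 or mutant HEC replicate 1. Only *smad5* and *smad6b* were called in all 12 of these fits, and the log2 fold changes of the 8 genes stayed negative in each. The count was 7, beside 3.23% of all genes, without the 3 libraries rich in muscle markers. It was 6, beside 3.76%, without replicate 1 of sibling and mutant ECs, which held the most blood markers among ECs.

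**Figure D2:**
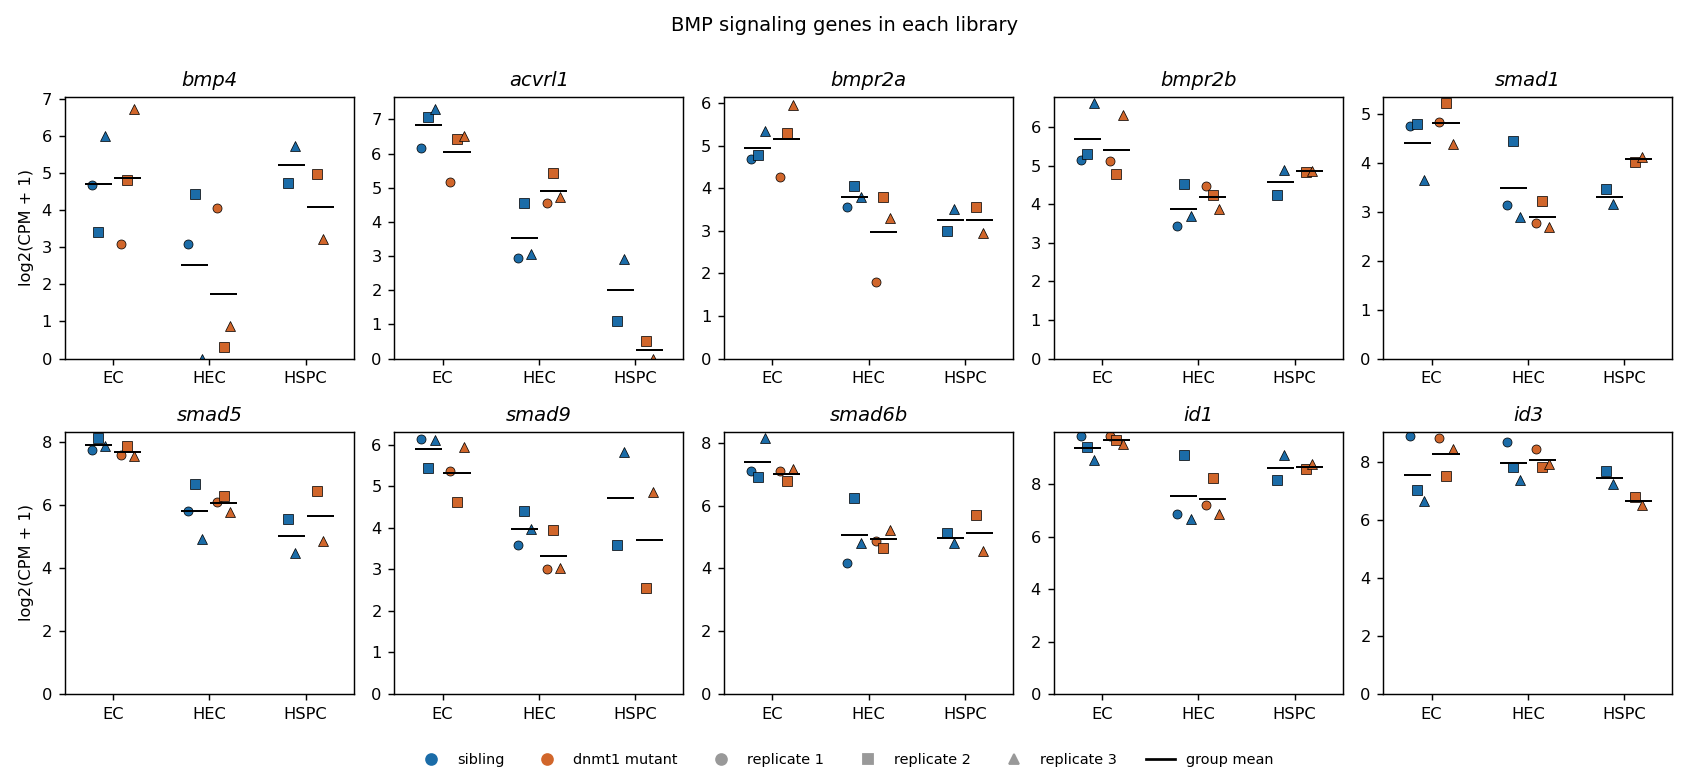
Level of each BMP gene in each library, as log2(CPM + 1), for ECs, HECs and HSPCs of siblings and *dnmt1* mutants, with 1 point per library and a bar at each group's mean. Most genes drop from ECs to HECs, *acvrl1* drops again in HSPCs, and *id3* overlaps between ECs and HECs.

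The ligand *bmp4* varied widely between the libraries of each cell type. It was at 7.56–105 CPM in ECs (median 25.9), 0–20.8 CPM in HECs (median 4.19), and 25.4 and 52.3 CPM in sibling and 30.4 and 8.28 CPM in mutant HSPCs. The cell types overlapped. In HECs the level ran from 20.8 CPM in replicate 2 to 0 CPM in replicate 3 among siblings, and from 15.5 to 0.23 CPM among mutants. HECs differed from ECs by a log2 fold change of -2.45 ± 1.14 (SE, adjusted *P* = 0.198) and HSPCs from HECs by 1.94 ± 1.20 (adjusted *P* = 0.307).

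The type I receptor *acvrl1*, the zebrafish Alk1 gene that arterial endothelium uses to sense BMP ligands in flowing blood, showed the steepest gradient. Its level in sibling ECs was 70, 132 and 157 CPM and in mutant ECs 35.1, 85.8 and 91.1 CPM. In HECs it was 6.66, 22.3 and 7.35 CPM in siblings and 22.3, 41.9 and 25.5 CPM in mutants. In HSPCs it was 1.15 and 6.53 CPM in siblings and 0.437 and 0 CPM in mutants. All HSPC libraries lay below all HEC libraries, the closest by 6.53 against 6.66 CPM, whereas the lowest EC library lay within the range of HECs. The counts behind the HSPC values were 4 and 77 in siblings and 2 and 0 in mutants. A count of 0 in the deep mutant replicate 3 allows up to 0.218 CPM (3 counts, counting error only).

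On the log2 scale *acvrl1* changed by -2.27 ± 0.53 from EC to HEC (adjusted *P* = 0.0242) and by -4.57 ± 0.77 from HEC to HSPC (adjusted *P* = 0.00244). HSPCs differed from ECs by -6.84 ± 0.83 (adjusted *P* = 8.66e-05). With each library left out in turn these changes ran from -2.66 to -2.14, with adjusted *P* up to 0.068, from -6.09 to -3.80 and from -8.36 to -6.07. Within genotypes, HSPCs differed from HECs by -1.58 in siblings, which was not called (adjusted *P* = 0.372), and by -7.55 in mutants. It was the only BMP gene called between HSPCs and HECs with both genotypes averaged. There 5.62% of all genes were called lower and 8.37% higher, and 6.65% had all HSPC libraries below all HEC libraries. All 12 endothelial markers were called lower in the same comparison, with a median log2 fold change of -8.44. The part of endothelial content in the fall of *acvrl1* was not tested. With so few reads in mutant HSPCs the fitted change there depends on the test's prior count. Pooled over libraries, HECs had 1.92 times the level of HSPCs in siblings (95% counting interval 1.48 to 2.52, from 205 and 81 reads) and 261 times in mutants (71.9 to 2160, from 550 and 2 reads). PCR copies are not independent molecules, so these intervals cover counting error only, and they hold no spread between replicates.

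Both type II receptor genes, *bmpr2a* and *bmpr2b*, duplicates of the single mammalian *Bmpr2*, were lower in HECs. *bmpr2a* was at 18.1–60.6 CPM in ECs (median 32.4), 2.48–15.6 CPM in HECs (median 11.8) and 6.68–10.7 CPM in HSPCs. Its log2 fold change was -1.75 ± 0.43 from EC to HEC (adjusted *P* = 0.0279) and -1.99 ± 0.50 from EC to HSPC (adjusted *P* = 0.0158). *bmpr2b* was at 26.5–98.1 CPM in ECs (median 36.6), 9.85–22.1 CPM in HECs (median 15.7) and 17.9–28.8 CPM in HSPCs. It changed by -1.69 ± 0.38 from EC to HEC (adjusted *P* = 0.022), and its HSPC libraries overlapped those of ECs (log2 fold change -1.01 ± 0.43, adjusted *P* = 0.121).

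The ratio of *bmpr2b* to *bmpr2a* within a library shows how the duplicates parted. It was 0.696–2.46 in ECs (median 1.42), 0.92–8.3 in HECs (median 1.39) and 2.55–4.2 in HSPCs (median 2.66). All 4 HSPC libraries lay above all 6 EC libraries, with a mean log2 difference of 1.05 (exact two-sided permutation test, adjusted *P* = 0.0286 over 9 ratio comparisons). With same-numbered libraries paired, the difference was 1.14 with an adjusted *P* of 0.225 in an exact test. With 4 pairs that test cannot give an unadjusted *P* below 0.125. HSPCs and HECs overlapped in this ratio, with a difference of 0.83 (exact permutation test, adjusted *P* = 0.39). Without mutant HEC replicate 1, which carried the highest ratio and the muscle markers, that difference was 1.29 (exact permutation test, adjusted *P* = 0.039).

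The 3 receptor-activated Smads, which carry the signal from the receptors to the nucleus, were each lower in HECs. *smad5* was at 188–282 CPM in ECs (median 223), 29.4–101 CPM in HECs (median 61.7), and 46.1 and 21.6 CPM in sibling and 87.1 and 28.4 CPM in mutant HSPCs. Its log2 fold change was -1.80 ± 0.34 from EC to HEC (adjusted *P* = 0.0112) and -2.34 ± 0.41 from EC to HSPC (adjusted *P* = 0.00148). The lowest EC library was above every HEC and HSPC library.

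*smad1* was at 11.5–36.5 CPM in ECs (median 26.4), 5.49–20.8 CPM in HECs (median 7.11) and 7.89–16.5 CPM in HSPCs. Its fall from EC to HEC was the smallest of the 8 called, with a log2 fold change of -1.49 ± 0.40 (adjusted *P* = 0.0395), and its libraries overlapped. The only HEC library within the range of ECs was sibling replicate 2, at 20.8 CPM. In HSPCs it differed from ECs by -1.03 ± 0.45 (adjusted *P* = 0.133). *smad9*, the third receptor-activated Smad, was at 23.7–68.7 CPM in ECs (median 51.5) and 6.98–20.1 CPM in HECs (median 12.6), a change of -2.05 ± 0.49 on the log2 scale (adjusted *P* = 0.0255). In HSPCs it was at 11 and 55.8 CPM in siblings and 4.81 and 28 CPM in mutants, high in both replicate 3 libraries, which also held the most muscle markers, and the part of muscle cells in this was not tested.

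*smad5* and *smad1* did not keep the same proportion in HSPCs as in ECs. The ratio of *smad5* to *smad1* was 6.36–20.2 in ECs (median 8.74), 4.57–11.4 in HECs (median 8.05) and 1.72–5.67 in HSPCs (median 3.51). In HECs it was 7, 4.81 and 4.57 in siblings and 11.4, 9.25 and 9.82 in mutants, a difference that was not tested. In HSPCs it was 4.52 and 2.72 in siblings and 5.67 and 1.72 in mutants. The lower value of each genotype was in replicate 3, which also held the most muscle markers. The part of muscle cells in this was not tested. HSPCs lay below ECs without overlap, with a mean log2 difference of -1.52 (exact two-sided permutation test, adjusted *P* = 0.0286). The difference between HSPCs and HECs was -1.15 (exact permutation test, adjusted *P* = 0.0686), and that between HECs and ECs was -0.36 (adjusted *P* = 0.39). Between HECs and ECs it was -1.16 in siblings alone and 0.43 in mutants alone. With same-numbered libraries paired, HSPCs differed from ECs by -1.68 (exact test, adjusted *P* = 0.225), again with 4 pairs.

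*smad6b*, an inhibitory Smad that is itself a BMP target in mammals and part of the pathway's feedback, had the smallest *P*-value of the set between HECs and ECs. It was at 110–282 CPM in ECs (median 136), 17.1–74 CPM in HECs (median 27.7) and 22.7–51.1 CPM in HSPCs. Every EC library was above every HEC and HSPC library. The log2 fold change was -2.16 ± 0.37 from EC to HEC (adjusted *P* = 0.00827) and -2.19 ± 0.44 from EC to HSPC (adjusted *P* = 0.00382). HSPCs and HECs differed by -0.03 ± 0.40 (adjusted *P* = 0.985).

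The targets *id1* and *id3*, inhibitors of DNA binding that hold back basic helix-loop-helix factors, behaved differently from each other. *id1* was at 483–915 CPM in ECs (median 780), 101–552 CPM in HECs (median 132), and 284 and 551 CPM in sibling and 386 and 433 CPM in mutant HSPCs. From EC to HEC it changed by -1.78 ± 0.41 on the log2 scale (adjusted *P* = 0.0236). The log2 fold change of HSPCs against HECs was 0.91 ± 0.44 and did not pass the test (adjusted *P* = 0.184). Sibling HEC replicate 2, at 552 CPM, was the only HEC library in the range of ECs, and with mutant replicate 2, at 301 CPM, it overlapped HSPCs. Without sibling HEC replicate 2 *id1* was called higher in HSPCs than in HECs (log2 fold change 1.53, adjusted *P* = 0.00911), so that 2 BMP genes instead of 1 were called (9.13% of all genes were called higher). Among HECs this library also held the most neural (383 CPM summed), epidermal (272 CPM), mesenchymal and stromal (226 CPM), neural crest (49.2 CPM) and pronephric (26.1 CPM) markers. It was the highest HEC library for *bmp4*, *bmpr2a*, *bmpr2b*, *smad1*, *smad5*, *smad6b* and *smad9* too. The part of cells with these markers in its *id1* level and in those levels was not tested.

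*id3* was at 98.6–477 CPM in ECs (median 262), 166–409 CPM in HECs (median 233), and 204 and 147 CPM in sibling and 108 and 89.9 CPM in mutant HSPCs. ECs spanned the whole range of HECs, and replicate 1 was the highest library of each EC and HEC group. Between HECs and ECs the log2 fold change was -0.05 ± 0.38 (adjusted *P* = 1). HSPCs were -1.02 ± 0.44 from HECs (adjusted *P* = 0.134) and -1.07 ± 0.44 from ECs (adjusted *P* = 0.113). HSPCs had no replicate 1, so both values set groups with that high library against groups without it. Over the alternatives other than leaving out single libraries, the first ran from -1.02 to -0.59 and the second from -1.07 to -0.33. Over the same alternatives the value for HECs against ECs ran from -0.15 to 0.6.

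The ratio of *id1* to *id3* therefore dipped in HECs. It was 1.92–5.2 in ECs (median 3.14), 0.285–2.47 in HECs (median 0.541) and 1.39–4.81 in HSPCs (median 3.65). The mean log2 difference was -2.16 between HECs and ECs (exact two-sided permutation test, adjusted *P* = 0.0286) and 2.13 between HSPCs and HECs (adjusted *P* = 0.0429). Only 1 HEC library, sibling replicate 2, reached into the range of the other cell types. HSPCs and ECs differed by -0.03 (exact permutation test, adjusted *P* = 0.962). With same-numbered libraries paired, the differences were -2.16 (exact test, adjusted *P* = 0.225) and 1.63 (adjusted *P* = 0.375). The second rests on replicates 2 and 3, since HSPCs had no replicate 1. HECs were below ECs in all 6 pairs. HSPCs were above HECs in every pair but sibling replicate 2. With 6 pairs the exact test cannot give an unadjusted *P* below 0.0312, and with 4 pairs none below 0.125. Adjusted over all ratio comparisons, no paired test could fall under 0.05, so these adjusted values decide nothing. Replicate 1 ratios in HECs were 0.285 in siblings and 0.431 in mutants.

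**Figure D3:**
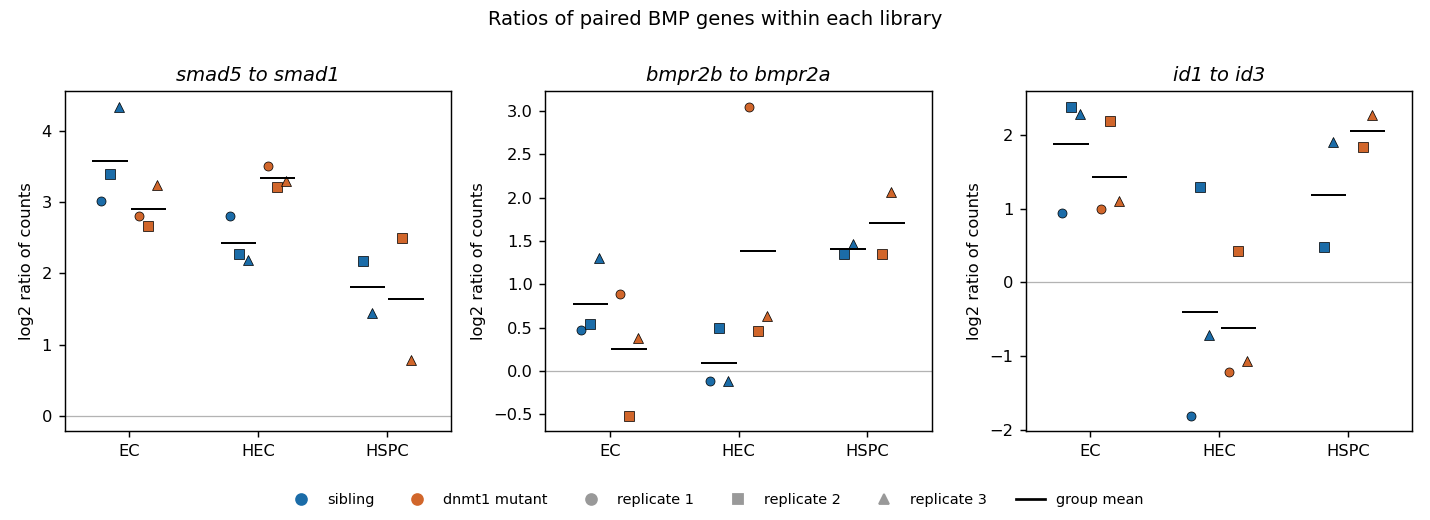
Log2 ratio of counts within each library for *smad5* to *smad1*, *bmpr2b* to *bmpr2a* and *id1* to *id3*, by cell type and genotype, with a bar at each group's mean. HSPCs lie below ECs for *smad5* to *smad1* and above them for *bmpr2b* to *bmpr2a* without overlap, and HECs are lowest for *id1* to *id3*.

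The ratio results also depended on single libraries. Where 1 of 4 HSPC libraries was left out, this also reduced what an exact test can reach. The adjusted *P* was then 0.0536 to 0.0714 for both ratios that separated HSPCs from ECs, whichever HSPC library was left out. For *id1* to *id3* it was 0.0519 between HECs and ECs without sibling HEC replicate 1, sibling HEC replicate 3, mutant HEC replicate 2 or mutant HEC replicate 3. Between HSPCs and HECs it was 0.0536 to 0.107 in 9 of 10 such tests, and 0.0357 without sibling HEC replicate 2. The sign of these 4 differences was the same in every test that left out 1 library.

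Compared directly with ECs, 4 of the 10 genes were called lower in HSPCs, namely *acvrl1*, *bmpr2a*, *smad5* and *smad6b*, and none was called higher. Of all genes tested 7.40% were called lower and 8.44% higher, and the same 4 members lay below ECs without overlap, as did 7.92% of all genes. The median log2 fold change was -1.07 for the members and 0.19 for all genes. This count was 3 or 4 whichever library was left out, beside 4.65% to 7.13% of all genes, and 3 without the libraries rich in muscle markers, where 5.76% of all genes were called lower. All 12 endothelial markers were called lower in HSPCs than in ECs, with a median of -10.10 on the log2 scale, and the part of endothelial content in the 4 calls was not tested.

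**Figure D4:**
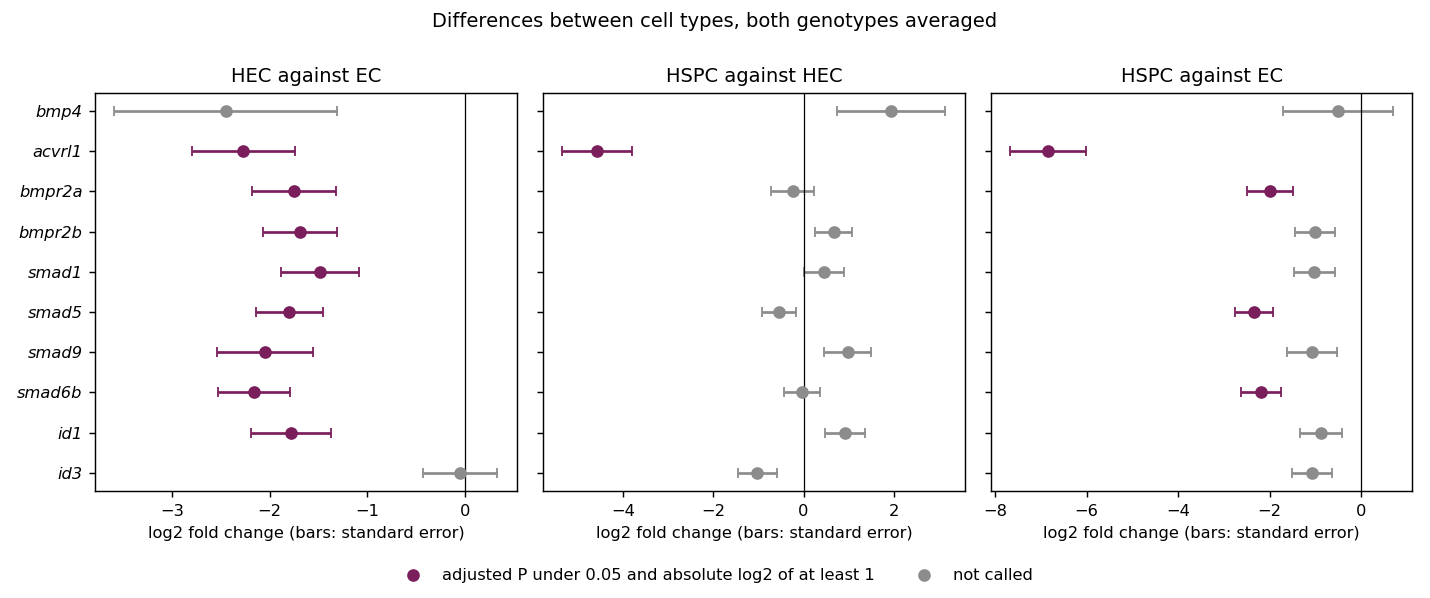
Log2 fold changes of the 10 BMP genes between cell types with both genotypes averaged (points), purple where the gene was called. Bars are standard errors back-calculated from the test. From EC to HEC 8 genes are called lower, from HEC to HSPC only *acvrl1*, and HSPCs are below ECs in 4.

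Between mutants and siblings no BMP gene was called in ECs, HECs or HSPCs, and edgeR called no gene at all in these comparisons (0% of those tested). At an unadjusted *P* under 0.05 the members numbered 0 in ECs, 0 in HECs and 1 in HSPCs, beside 3.21%, 2.70% and 1.92% of all genes. DESeq2 at an adjusted *P* under 0.05 called 0 members in each, beside 0.194%, 0.113% and 0.244% of all genes. The gene was *acvrl1*, lower in mutant HSPCs with a log2 fold change of -4.66 ± 1.23 (adjusted *P* = 1 in edgeR), on 2 and 0 reads against 4 and 77 in siblings. That value ran from -7.72 to -2.88 with each library left out and from -4.85 to -1.34 over the other alternatives, the last without the libraries rich in muscle markers. In HECs the same gene was at 1.31 ± 0.74 in mutants (adjusted *P* = 1). Leaving out each library in turn left the count of calls at 0 in all 3 cell types.

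The other members gave log2 fold changes between mutants and siblings from -0.53 to 0.51 in ECs, from -0.83 to 0.27 in HECs and from -1.02 to 0.82 in HSPCs, and their libraries overlapped in ECs and HECs. In HSPCs, mutants lay above siblings without overlap in *smad1* (15.3 and 16.5 against 10.1 and 7.89 CPM) and below them in *acvrl1* and *id3*, and 11.4% and 9.35% of all genes did so upward and downward. With 2 libraries against 2, such a pattern is common. Same-numbered libraries pair a mutant with a sibling in 8 cases, and *smad9* was lower in the mutant in 8 of 8. Over all genes, 0.732% went one way in every pair, and *smad9* was singled out after its values were seen. Its log2 fold changes with a replicate block were -0.60 in ECs, -0.64 in HECs and -1.03 in HSPCs (adjusted *P* = 1 in each). *acvrl1* was lower in the mutant in 3 of 3 pairs of ECs and 2 of 2 of HSPCs and higher in 3 of 3 of HECs, with no call under the block. *smad1* had the opposite direction in each of these pairs, so such a pattern was not particular to *acvrl1*. So few pairs can share a direction by chance. The share of all genes that did so was not counted, and both genes were picked after their values were seen. Standard errors, back-calculated from the edgeR test, were 0.47 to 1.87 for these comparisons. A change several times its standard error still went uncalled, as for *acvrl1* in HSPCs at -4.66 ± 1.23. Changes of the size of a standard error, and larger ones, could therefore go undetected with this number of libraries.

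Within one genotype the comparisons of cell types had less power. In siblings alone and in mutants alone, 0 of the 10 genes were called between HECs and ECs, where edgeR called 0.00945% of genes lower in siblings and 0% in mutants. In siblings 9 of 10 genes and in mutants 10 of 10 had a negative log2 fold change, as did 46% and 49.8% of all genes. By edgeR 6 and 7 had an unadjusted *P* under 0.05, as did 14.3% and 15.3% of all genes. With same-numbered libraries paired, the counts were 2 in siblings and 1 in mutants, beside 0.543% and 0.284% of all genes called lower. DESeq2 called 4 and 6, beside 3.65% and 4%. Without sibling HEC replicate 2, 3 were called in siblings, beside 0.614% of all genes called lower.

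Between HSPCs and ECs, *acvrl1*, *smad5* and *smad6b* were called lower in siblings (3.30% of all genes) and *acvrl1* in mutants (2.36%). The sibling count fell to 1 without sibling HSPC replicate 2 or replicate 3 (1.07% and 2.05%), and the mutant count rose to 3 with paired libraries (3.97% of all genes). Between HSPCs and HECs 0 members were called in siblings, beside 0.922% of all genes called lower. There 0 members had an unadjusted *P* under 0.05 by edgeR, against 17.5% of all genes, and DESeq2 called 0 members beside 3.67% of all genes. In mutants, where 1.21% of all genes were called lower, *acvrl1* was called, with a log2 fold change of -7.55 ± 1.28 (adjusted *P* = 0.00809), but not without mutant HSPC replicate 3.

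The difference between genotypes in each of these comparisons was tested directly. No BMP gene was called by edgeR, which called 0% of all genes. The change of *acvrl1* from HEC to HSPC differed most between genotypes, by -5.97 ± 1.44 on the log2 scale (adjusted *P* = 1 in edgeR). DESeq2 called it at an adjusted *P* under 0.05, beside 0.112% of all genes. The value ran from -6.22 to -2.82 over the alternatives other than leaving out single libraries. It rests on 2 and 0 reads in mutant HSPCs against 4 and 77 in sibling HSPCs, the 77 in the muscle-rich replicate 3. At an unadjusted *P* under 0.05 edgeR gave 0 members for HEC against EC and 1 each for HSPC against HEC and HSPC against EC, beside 3.62%, 2.24% and 2.37% of all genes, and DESeq2 called 0 for the first and the last, beside 0.149% and 0.0709% of all genes.

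The rest of the pathway was examined with lists of 94 genes besides the 10, of which 75 passed the filter and 23 were called in at least 1 comparison of cell types, as were 24.1% of all genes tested. None was called between genotypes. From EC to HEC, calls were all downward, in 1 of 12 ligands, 1 of 12 receptors and co-receptors, 2 of 11 other Smads and intracellular inhibitors, 4 of 15 extracellular antagonists, 0 of 14 other targets and 0 of 11 genes of the TGF-β branch. The shares of all genes tested were 3.63% called lower and 3.49% called higher. All 15 antagonists, 11 of 12 receptors and 10 of 11 Smads and inhibitors had a negative log2 fold change, with medians of -1.75, -1.20 and -0.54. So did 48.9% of all genes, with a median of 0.02. The ligands had a median of -2.39, or -1.84 with the 3 genes that were at 0 throughout a group set to a floor of 3 counts over that group.

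In the step from EC to HEC, *bmp16*, a ligand of the Bmp2/4 family found in fish, fell from 64.9–176 CPM (median 137) to 9.68–56.7 CPM (median 17.5), with a log2 fold change of -2.58 ± 0.71 (adjusted *P* = 0.0437). In HSPCs it was at 0–7.3 CPM, with a further log2 fold change of -3.40 ± 0.89 (adjusted *P* = 0.0236). The BMP antagonist *grem2b* was at 0–15.6 CPM in ECs and at 0 CPM in all HEC libraries but mutant replicate 1, at 1.35 CPM, which gave a fitted value of -6.09 (adjusted *P* = 0.0325). In HSPCs it was at 3.9–25.6 CPM and was called higher than in HECs (adjusted *P* = 0.0104).

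From HEC to HSPC, calls went both ways, with 1 ligand higher and 2 lower, 1 co-receptor higher, 3 antagonists higher, 1 other target higher and 1 lower, and 3 of 11 genes of the TGF-β branch lower. The shares of all genes tested were 8.37% called higher and 5.62% called lower. Markers of other tissues were higher in HSPCs too, with calls in 4 of 7 neural, 3 of 7 mesenchymal and stromal, 2 of 6 epidermal and 2 of 4 pronephric genes. The neural markers summed to 27–383 CPM in HECs and 958–2730 CPM in HSPCs, and the part of such cells in the genes called higher was not tested. The ligand gene *bmp5* was at 0–0.921 CPM in HECs and 0.0726–41.9 CPM in HSPCs (adjusted *P* = 0.03). *nog2*, a secreted Noggin that binds BMPs, was at 0 CPM in 5 of 6 HEC libraries and at 0.577 and 67.5 CPM in sibling and 4.15 and 49.7 CPM in mutant HSPCs (adjusted *P* = 0.0287). Its high libraries were the 2 replicate 3 libraries with the most muscle markers. *hfe2*, the hemojuvelin gene, a BMP co-receptor known from muscle and liver, followed the same libraries, at 0 and 73.4 CPM in sibling and 0 and 36.3 CPM in mutant HSPCs. It was called higher in HSPCs than in ECs (log2 fold change 7.41 ± 2.27, adjusted *P* = 0.0402), and the part of muscle cells in these values was not tested.

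Of the other targets, *id4*, another inhibitor of DNA binding, was at 6.04–20 CPM in ECs, 0.568–8.28 CPM in HECs and 10.5–36.1 CPM in HSPCs, higher in HSPCs than in HECs by 3.28 ± 0.72 (adjusted *P* = 0.0107). It differed by -2.14 ± 0.66 between HECs and ECs and was not called there (adjusted *P* = 0.0611). *hey2*, a transcriptional repressor of arterial endothelium that Notch also drives, was at 43.3–148, 2.32–43.7 and 1.44–8.94 CPM in ECs, HECs and HSPCs, with a log2 fold change of -4.27 ± 0.77 from EC to HSPC (adjusted *P* = 0.00191).

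In the TGF-β branch, edgeR called 0 of 11 genes between HECs and ECs, beside 3.63% of all genes called lower. Between HSPCs and ECs it called 4 of 11, all lower, beside 7.40% of all genes. The type II receptors *tgfbr2a* and *tgfbr2b* were at 9.3–37.4 and 76.3–259 CPM in ECs and at 0–2.18 and 2.62–27.7 CPM in HSPCs (log2 fold changes -5.24 ± 1.42 and -3.35 ± 0.70, adjusted *P* = 0.0219 and 0.00502). The ligand gene *tgfb1b* was at 15.9–41.2 CPM in ECs, 15.6–55.1 CPM in HECs and 0–5.37 CPM in HSPCs, with a log2 fold change of -3.21 ± 0.73 from HEC to HSPC (adjusted *P* = 0.0124). Outside this branch, *gdf6a* of the BMP ligand list had a like course, at 11.2–75.3, 16.3–43.9 and 1.38–15.6 CPM, with a log2 fold change of -2.68 ± 0.61 from HEC to HSPC (adjusted *P* = 0.0126). In the list of extracellular antagonists, *sost*, the sclerostin gene, was at 7.56–29.2 CPM in ECs and 0–6.82 CPM in HSPCs (log2 fold change -2.92 ± 0.91, adjusted *P* = 0.0417).

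**Figure D5:**
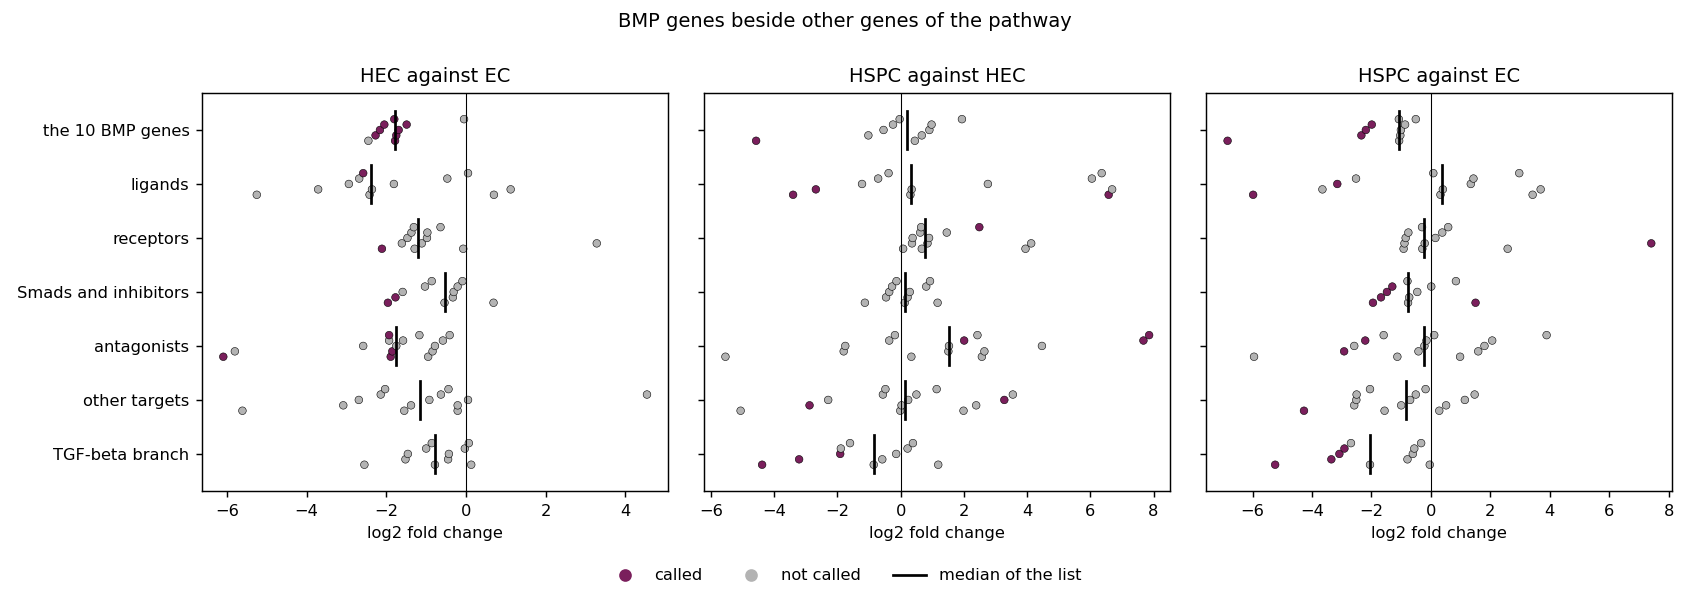
Log2 fold changes of the 10 BMP genes and of 6 lists of other pathway genes in 3 comparisons of cell types, with 1 point per gene, purple where called, and a line at each list's median. From EC to HEC all called genes lie below 0, whereas from HEC to HSPC calls fall on both sides.

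Across the 16 libraries the members moved together to different degrees. The closest pairs were *smad5* and *smad6b* (Pearson's r = 0.88 on log2(CPM + 1)) and *smad1* and *id1* (r = 0.87). *smad6b* had the highest median correlation with the other 9 members (0.71) and *id3* the lowest (0.01, from -0.21 to 0.31). These values describe points that share cell types, sorts and depth, and no test was made of them.

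Over 19626 genes, the genes most like *acvrl1* in pattern over the 16 libraries were *klf2b*, *ildr2* and *fbxl7* (r = 0.959, 0.958 and 0.956). *klf2b*, a transcription factor that blood flow induces in endothelium, was at 921–2220 CPM in ECs, 219–580 CPM in HECs and 46.5–170 CPM in HSPCs. Those most like *smad6b* were *pim3*, *tjp2b* and *notch1a* (r from 0.936 to 0.955). *notch1a*, a Notch receptor, was at 131–234, 32.6–78.5 and 33.5–64.9 CPM in the same order. Like *smad6b*, it was at one level in HECs and HSPCs.

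For *id1* the closest genes were *angptl4*, *dchs1a* and *alcama* (r = 0.956, 0.943 and 0.938). *angptl4*, an angiopoietin-like secreted protein, was at 416–754 CPM in ECs, 61.9–816 CPM in HECs (median 85.1) and 273–297 CPM in HSPCs. For *id3* the closest were *nop14*, *larp1* and *nfkb2_1* at lower correlations (r = 0.834, 0.832 and 0.829), each below 25 CPM in every library.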

How the data were processed

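RNA-seq was measured in 16 libraries of 500 sorted cells each by the study's methods, whereas the labels describe single cells and 3′-biased libraries. The authors trimmed reads with cutadapt, aligned them to GRCz11 with HISAT2 2.2.1 and counted them on genes with HTSeq 0.12.4, and they deposited raw counts. Annotation and strand setting are not given in the sources used here. The 5 tallies of reads given to no gene (45.8% of reads) were left out. The authors' own fold changes and lists of methylated tiles were not used, and promoters and proteins were not analysed here.

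Counts were tested with edgeR 4.0.16 in R 4.3.3 (TMM, filterByExpr, robust quasi-likelihood fit, 1 coefficient per cell type and genotype). A gene was called at an adjusted *P*-value under 0.05 with a log2 fold change of 1 or more in size. Standard errors (SE, given after ±) were back-calculated as the absolute log2 fold change over the square root of the F statistic. They are approximate, least so where counts are high and most so where counts are near 0. Ratios were of counts plus 0.5, compared by exact permutation tests over libraries (scipy 1.17.1). The reads of same-numbered libraries deviated together. Correlations of deviations from group means were 0.225 to 0.517 between genotypes of ECs and HECs, 0.511 for HSPCs and 0.113 to 0.283 between cell types, against at most 0.111 for different numbers, so the numbers were taken to pair libraries. Deviations in a group sum to 0, so high values for the same number lower those for different numbers. With 2 HSPC libraries per group, 0.511 and -0.511 are a single value with its sign reversed. The main edgeR fit and the permutation tests of ratios did not use this pairing, and their *P*-values treat libraries as independent. The pairing entered only the replicate block, the paired tests and the counts of directions by pair.

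Alternatives were RLE size factors, total counts, no filter, at least 10 counts in every compared library, no fold-change minimum, only the compared groups, a replicate block, leaving out each library, and DESeq2 1.42.0 with thresholds of 0.05 and 0.5 on the adjusted *P*-value. Leaving out libraries rich in muscle or, for ECs, blood markers (over 1000 CPM summed) was added after seeing the data. The members and lists were chosen with earlier results of these data known. The genes named are the members, *dnmt1*, the 12 other pathway genes called with the largest change, and the 3 genes closest in pattern to *acvrl1*, *smad6b*, *id1* and *id3*. Scripts were tested on simulated data.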

Additional observations from a re-analysis of the deposited data

How the results depend on the processing

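For the averaged comparisons, the counts of BMP genes called were 6 to 9 between HECs and ECs, 0 to 4 between HSPCs and HECs and 3 to 5 between HSPCs and ECs over the alternatives that kept all libraries or left out those rich in markers. These ranges mix thresholds of 0.05 and 0.5 on the adjusted *P*-value. A count given without the share of all genes called in that setting shows nothing particular to the members. Scaling by RLE moved the median log2 of all genes between HSPCs and HECs from 0.037 to 0.195, and no call of a member in the averaged comparisons depended on it. DESeq2 at an adjusted *P* under 0.5 called 4 members between HSPCs and HECs, 3 of them higher, beside 38.4% of all genes, and 1 member lower in mutant HSPCs, beside 0.417%. At that threshold it called 7, 2 and 6 in siblings for HEC against EC, HSPC against HEC and HSPC against EC, beside 26.2%, 28.8% and 35.3% of all genes, 9, 4 and 6 in mutants, beside 27.7%, 31.3% and 29.6%, and 1 for the genotype difference in HSPC against HEC, beside 0.498%. At 0.05 it called 4 in siblings and 6 in mutants for HEC against EC, 3 in mutants for HSPC against EC, beside 5.93% called lower, and 1 for the same genotype difference. With at least 10 counts in every library *acvrl1* was not tested against HSPCs, and the count was 0 between HSPCs and HECs, 0 for HSPC against HEC and for HSPC against EC in mutants, and 1 for HEC against EC in siblings. With only the compared groups it was 1 for HEC against EC in mutants and 0 for HSPC against EC in siblings, and with the low-muscle libraries 1 for the latter. The replicate block gave 2 in siblings and 1 in mutants for HEC against EC and 3 in mutants for HSPC against EC, and changed no other count of calls by over 1.5 times. Leaving out each library in turn gave 2 to 8 for HEC against EC, 3 to 4 for HSPC against EC and 1 to 2 for HSPC against HEC. The shares of all genes called lower were 1.1% to 5.72%, 4.65% to 7.13% and 2.67% to 5.7%. In siblings the ranges were 0 to 3, 1 to 3 and 0 to 0, in mutants 0 to 0, 1 to 1 and 0 to 1, and for differences between genotypes 0 to 0. The shares of all genes called lower were 0% to 0.614%, 1.07% to 3.32% and 0.305% to 0.843% in siblings. In mutants they were 0% throughout, 0.878% to 1.89% and 0.394% to 0.731%. Of 2691 values of single members under an alternative, 59 lost and 62 gained a call, and 0 of the called values changed sign.

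For ratios, adding 5 to the counts gave 0.99 for *bmpr2b* to *bmpr2a* in HSPCs against ECs (exact permutation test, adjusted *P* = 0.0643) and 2.12 for *id1* to *id3* in HSPCs against HECs (adjusted *P* = 0.0571). Tests of paired libraries, the replicate block of these ratios, gave -1.68 for *smad5* to *smad1* and 1.14 for *bmpr2b* to *bmpr2a* in HSPCs against ECs, and -2.16 and 1.63 for *id1* to *id3* in HECs against ECs and HSPCs against HECs. Sibling libraries alone gave -1.77, 0.64, -2.28 and 1.59 for the same 4 differences, and mutant libraries alone gave -1.26, 1.46, -2.05 and 2.67. With 3 libraries against 3, or 2 against 3, the smallest exact *P* is 0.1, so these tests say nothing about stability. Some differences that were not called had opposite signs in siblings and mutants. In HECs against ECs, *smad5* to *smad1* gave -1.16 in siblings and 0.43 in mutants. For *bmpr2b* to *bmpr2a* the values were -0.68 and 1.13. In HSPCs against ECs, *id1* to *id3* gave -0.68 in siblings and 0.62 in mutants. Averages over both genotypes hide these opposite values, whose difference between genotypes was not tested. Leaving out each library gave -0.49 to -0.15, -1.41 to -0.84 and -1.78 to -1.20 for *smad5* to *smad1* in HECs against ECs, HSPCs against HECs and HSPCs against ECs. It gave -0.24 to 0.39, 0.66 to 1.29 and 0.85 to 1.21 for *bmpr2b* to *bmpr2a*, and -2.53 to -1.90, 1.87 to 2.51 and -0.25 to 0.35 for *id1* to *id3*.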
